A study of Mus musculus with 32 samples.

Results

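The adenylyl cyclases are the enzymes that make cyclic AMP (cAMP) from ATP. Their 9 membrane-bound members, Adcy1 to Adcy9, were followed in the blood and the cerebellum of 2 mouse models of syndromic autism. For each gene the probe set was taken whose only gene symbol in the platform annotation is the member, and the brightest one over all 32 arrays where there are several. Each member had exactly 1 such probe set, so all 9 were measured, out of 19938 genes with a probe set of their own and 35556 probe sets in all. Blood and cerebellum came from the same 16 mice, 1 array for each mouse and tissue, killed between 8 and 10 weeks of age. The Fmr1 experiment held 5 Fmr1-KO mice, without the RNA-binding protein FMRP, and 5 WT mice (Fmr1-WT), all C57BL/6 congenic. The Tsc2 experiment held 3 Tsc2+/- mice, which keep 1 working copy of the mTORC1 inhibitor Tsc2 (homozygous loss is lethal in the embryo), and 3 WT mice (Tsc2-WT), all of a mixed 129/SvJae-C57BL/6J background. The 2 experiments therefore differ in strain as well as in the mutated gene, and a difference between them cannot be assigned to either.

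Membrane adenylyl cyclases are switched on by the stimulatory G protein Gs downstream of receptors for hormones and transmitters, and they differ in what else controls them. Adcy1, Adcy3 and Adcy8 are stimulated by calcium and calmodulin, and Adcy1 and Adcy8 are known for their part in synaptic plasticity. Adcy2, Adcy4 and Adcy7 are stimulated by G protein beta-gamma subunits once Gs is active, Adcy5 and Adcy6 are inhibited by calcium and by the inhibitory G protein Gi, and Adcy9 responds only weakly to the drug forskolin. The cAMP they make acts through protein kinase A, exchange factors and ion channels, and phosphodiesterases break it down. In FMRP-deficient cells cAMP production has been a long-standing topic of study.

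The values are linear intensities, which have no absolute scale, so levels were compared between groups for 1 gene and never between genes. The median intensity of an array lay between 134.2 and 185.6 in blood and between 180.9 and 257.2 in cerebellum. The cerebellum array of Fmr1-KO mouse 1 had the highest of these medians and correlated at 0.882 with the rest of its group, against 0.947 to 0.958 for the other 4, so the genotype differences in cerebellum are also given without it. The blood array of Fmr1-KO mouse 3 carried neuron markers at 958 (38.9 to 89 in the other 4), granule cell markers at 699 (206 to 305) and Purkinje cell markers at 562 (101 to 181). Fmr1 was lower in Fmr1-KO than in WT mice in both tissues, with no overlap (intensity 142 to 306 against 832 to 917 in cerebellum and 169 to 263 against 335 to 660 in blood). Tsc2 had intensities of 713, 754 and 1000 in Tsc2+/- cerebellum against 1130, 1180 and 1110 in Tsc2-WT cerebellum, and the blood groups overlapped. Summed neuron markers (6 genes) were 26200 to 42000 in cerebellum and at most 958 in blood, and summed erythroid markers (3 genes) were 23700 to 44900 in blood and at most 415 in cerebellum. The labels call all mice female and the methods call them male. On every array the Y-linked gene Kdm5d was between 265 and 852, and Xist was between 17.3 and 106. No detection calls come with the values, so a level this dim may be background, and a log2 difference against it depends on the floor of the arrays.

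Cerebellum and blood were compared first. In both experiments 6 of the 9 cyclases were higher in cerebellum, 2 were higher in blood, and Adcy4 did not pass the test. The tissue difference was tested with limma over all mice of an experiment with genotype as a term, at a Benjamini-Hochberg adjusted p under 0.05. At that threshold 71.8% of all probe sets differed between the tissues of the Fmr1 mice (51.8% higher and 20% lower in cerebellum) and 57.4% did in the Tsc2 mice (31% higher and 26.4% lower), so a difference between these tissues is the common case. The members' median log2 difference was 1.26 (Fmr1 experiment) and 1.82 (Tsc2 experiment), against 0.52 and 0.03 over all probe sets, medians that become -0.03 and -0.17 once each array is centred. In bulk tissue, fewer cells of a type and less RNA per cell cannot be told apart.

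**Figure D1:**
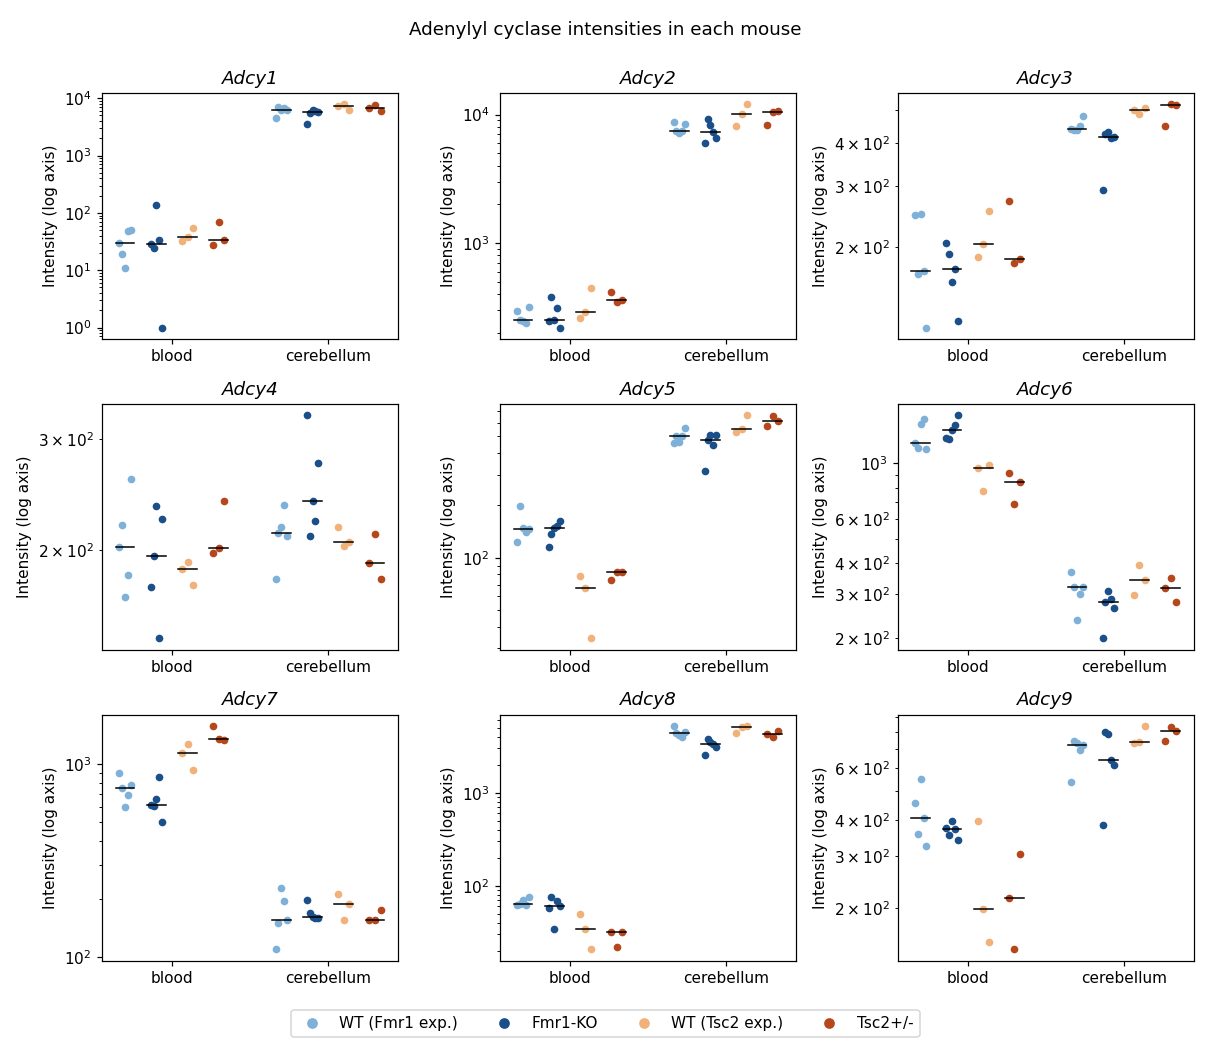
Intensity of each cyclase on every array (points; vertical log axis, each panel with its own range), by tissue and group, with the group median as a line; 1 value of Adcy1 in Fmr1-KO blood (0.00271) is drawn at 1. Adcy1, Adcy2 and Adcy8 are separated by tissue in every mouse, by at least 19.8 times in Adcy2, Adcy6 and Adcy7 are higher in blood, and Adcy4 overlaps.

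Among the calcium-stimulated cyclases, Adcy1 and Adcy8 were the most different between the tissues. Adcy1 in cerebellum had intensities of 3600, 5610, 6240, 6020 and 5730 in Fmr1-KO and 4560, 6890, 6260, 6800 and 6250 in Fmr1-WT mice, and of 6840, 7560 and 6090 in Tsc2+/- and 7380, 7940 and 6250 in Tsc2-WT mice. In blood the same probe set gave 28.9, 24.4, 135, 33.2 and 0.00271 in Fmr1-KO and 30.4, 19.2, 10.8, 49 and 50.5 in Fmr1-WT, and 27.7, 68.8 and 33.8 in Tsc2+/- and 32.1, 38.4 and 54.3 in Tsc2-WT. Every cerebellum value lay above every blood value, and in the median blood array only 14.9% of the probe sets were dimmer than Adcy1. The log2 difference, cerebellum minus blood, was 7.43 (SE 0.21, adjusted p = 1.5e-10) in the Tsc2 experiment. It was 8.78 (SE 1.35, adjusted p = 9.9e-06) in the Fmr1 experiment, where the value of 0.00271 in Fmr1-KO mouse 5 widens the error, and 7.42 without that mouse. The blood values lie in the range of Xist in blood (17.3 to 62.6) or below it in all but 2 arrays, so these sizes describe a bright against a near-background signal.

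Adcy8 showed the same direction in all 16 mice, with a ratio of cerebellum to blood between 44.2 and 252 within a mouse. Its blood intensities were 58, 76.5, 34.5, 69 and 60.3 in Fmr1-KO and 62.7, 64.5, 69.7, 61.6 and 75.9 in Fmr1-WT, and 31.6, 21.8 and 31.7 in Tsc2+/- and 49.7, 34 and 20.7 in Tsc2-WT. The cerebellum intensities were 2570, 3820, 3520, 3330 and 3090 in Fmr1-KO and 5260, 4390, 4190, 3960 and 4540 in Fmr1-WT, and 4260, 3970 and 4680 in Tsc2+/- and 4350, 5080 and 5230 in Tsc2-WT. Blood levels sat in the dim range of the arrays, at about the level of Xist and with 26% of probe sets dimmer in the median array, so the sizes below rest on a near-background signal. They were lower in the Tsc2 than in the Fmr1 experiment. The log2 difference between the tissues was 5.93 (SE 0.12, adjusted p = 1.3e-18) in the Fmr1 and 7.24 (SE 0.19, adjusted p = 7.4e-11) in the Tsc2 experiment.

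Adcy3, the cyclase that olfactory neurons and primary cilia use, differed by much less. Its blood intensities were 205, 191, 159, 173 and 122 in Fmr1-KO and 247, 168, 250, 170 and 117 in Fmr1-WT, and 273, 180 and 185 in Tsc2+/- and 187, 204 and 254 in Tsc2-WT. In cerebellum they were 293, 427, 431, 416 and 416 in Fmr1-KO and 441, 439, 437, 448 and 479 in Fmr1-WT, and 448, 521 and 516 in Tsc2+/- and 502, 488 and 506 in Tsc2-WT. Each mouse had more in cerebellum than in blood, by 1.43 to 4.1 times, and the log2 differences of 1.26 (SE 0.13, adjusted p = 4.8e-08) and 1.23 (SE 0.12, adjusted p = 4.4e-06) were alike in size in the Fmr1 and Tsc2 experiments.

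Of the cyclases stimulated by beta-gamma subunits, Adcy2 was higher in cerebellum, Adcy7 was higher in blood and Adcy4 differed little. Adcy2 had blood intensities of 246, 380, 252, 313 and 220 in Fmr1-KO and 295, 251, 246, 237 and 319 in Fmr1-WT, and 416, 347 and 362 in Tsc2+/- and 262, 291 and 443 in Tsc2-WT. In cerebellum the values were 6000, 9240, 8250, 7290 and 6610 in Fmr1-KO and 8810, 7510, 7220, 7410 and 8440 in Fmr1-WT, and 8230, 10400 and 10700 in Tsc2+/- and 8200, 10100 and 12100 in Tsc2-WT. The mice ranged only from 19.8 to 34.7 times in the ratio of their 2 tissues, and the log2 differences were 4.81 (SE 0.10, adjusted p = 3.2e-18) and 4.83 (SE 0.15, adjusted p = 3.5e-10).

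Adcy7, the main cyclase of many blood cells, had the opposite pattern. Its blood intensities were 615, 606, 657, 858 and 500 in Fmr1-KO and 899, 747, 599, 694 and 776 in Fmr1-WT, and 1570, 1340 and 1330 in Tsc2+/- and 1130, 1270 and 932 in Tsc2-WT, so that all mice of the Tsc2 experiment lay above those of the Fmr1 experiment. In cerebellum the values were 199, 169, 162, 160 and 159 in Fmr1-KO and 110, 150, 229, 195 and 156 in Fmr1-WT, and 156, 156 and 177 in Tsc2+/- and 212, 156 and 189 in Tsc2-WT. The log2 difference, cerebellum minus blood, was -2.04 (SE 0.13, adjusted p = 2.2e-11) in the Fmr1 and -2.85 (SE 0.14, adjusted p = 8.3e-09) in the Tsc2 experiment. Adcy4, which is known from vessels and other tissues, had blood intensities between 145 and 259 and cerebellum intensities between 180 and 327. These ranges overlap, and 11 of the 16 mice had more in cerebellum. Its log2 difference was 0.22 (95% confidence interval -0.02 to 0.45, adjusted p = 0.092) for the Fmr1 mice, and for the Tsc2 mice it was 0.02 (-0.18 to 0.23, adjusted p = 0.85).

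The calcium-inhibited pair split. Adcy5, the cyclase of striatal neurons and heart, was higher in cerebellum and Adcy6, its close relative, was higher in blood. Adcy5 had blood intensities of 114, 137, 148, 151 and 163 in Fmr1-KO and 124, 197, 148, 141 and 146 in Fmr1-WT, and 74.6, 83.1 and 82.8 in Tsc2+/- and 78.1, 67.3 and 34.2 in Tsc2-WT. The cerebellum values were 314, 479, 511, 443 and 509 in Fmr1-KO and 457, 502, 464, 500 and 557 in Fmr1-WT, and 571, 657 and 611 in Tsc2+/- and 527, 550 and 665 in Tsc2-WT. The log2 difference was 1.69 (SE 0.10, adjusted p = 1.5e-11) in the Fmr1 and 3.14 (SE 0.19, adjusted p = 5.7e-08) in the Tsc2 experiment, where blood was lower.

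For Adcy6 the blood intensities were 1260, 1250, 1360, 1430 and 1560 in Fmr1-KO and 1210, 1150, 1440, 1500 and 1140 in Fmr1-WT, and 916, 689 and 840 in Tsc2+/- and 958, 773 and 989 in Tsc2-WT. In cerebellum they were 199, 279, 308, 288 and 264 in Fmr1-KO and 368, 321, 236, 301 and 319 in Fmr1-WT, and 317, 349 and 278 in Tsc2+/- and 296, 393 and 342 in Tsc2-WT. No cerebellum value reached a blood value, and the log2 difference was -2.22 (SE 0.10, adjusted p = 2e-13) in the Fmr1 and -1.38 (SE 0.11, adjusted p = 9.2e-07) in the Tsc2 experiment. Adcy9 had blood intensities of 376, 354, 395, 372 and 342 in Fmr1-KO and 457, 357, 552, 407 and 326 in Fmr1-WT, and 216, 144 and 307 in Tsc2+/- and 395, 199 and 153 in Tsc2-WT. Its cerebellum values were 384, 798, 786, 641 and 616 in Fmr1-KO and 539, 746, 735, 690 and 721 in Fmr1-WT, and 744, 829 and 806 in Tsc2+/- and 733, 738 and 838 in Tsc2-WT. All 16 mice had more in cerebellum, the closest by 1.02 times and the farthest by 5.74 times. The log2 difference was 0.74 (SE 0.12, adjusted p = 2.5e-05) and 1.82 (SE 0.23, adjusted p = 3.6e-05), and the former became 0.20 (adjusted p = 0.25) once each array was centred on its median.

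**Figure D2:**
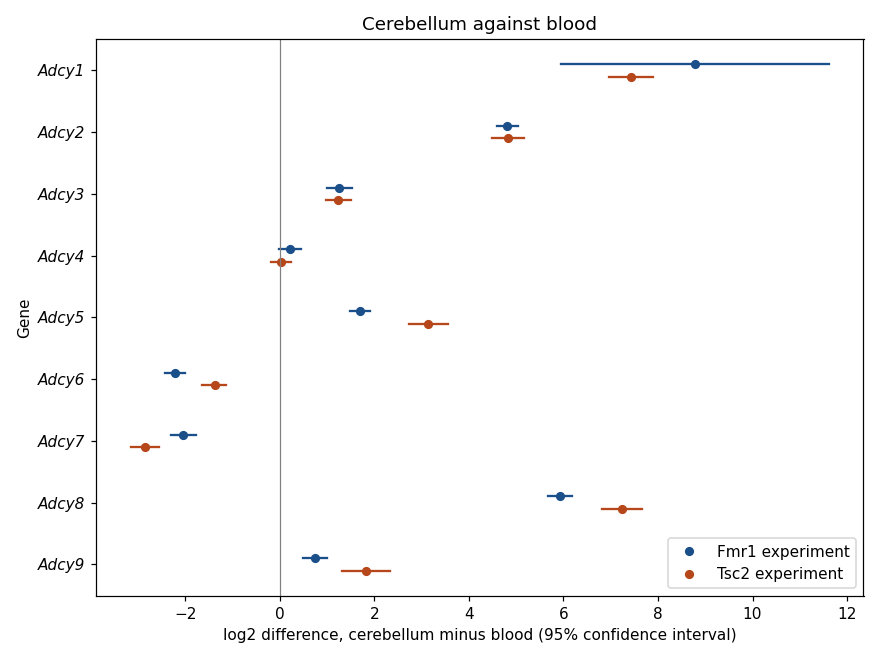
Log2 difference in intensity, cerebellum minus blood (horizontal axis), for each cyclase in the Fmr1 and the Tsc2 experiment, with 95% confidence intervals as lines. Adcy6 and Adcy7 lie left of 0 in both experiments, Adcy4 includes 0, and the other 6 lie to the right, led by Adcy1 and Adcy8.

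Regions around annotated starts are shown for Adcy1, Adcy2 and Adcy7. Adcy1 and Adcy2 are the cyclases far higher in cerebellum that have such a sequence, and Adcy7 was higher in blood. RefSeq on the GRCm38.p6 assembly gave 10 such sequences for 7 of the 9 members, each of 300 bases from 250 before to 50 after a start. The genes lie at chr11:7063433-7178506 (Adcy1), chr13:68620043-68999600 (Adcy2) and chr8:88272190-88329965 (Adcy7). The windows of Adcy1 and Adcy2 take in the end of the span at which the gene begins. All windows of Adcy7 lie inside its span, as do those of Adcy3, Adcy5 and Adcy9. The first start of Adcy7 is the first of those given and not the beginning of the span. Capitals mark GC boxes, the letters GGGCGG on either strand, which the factor Sp1 binds and which may overlap each other.
Adcy1, chr11:7063183-7063482, plus strand: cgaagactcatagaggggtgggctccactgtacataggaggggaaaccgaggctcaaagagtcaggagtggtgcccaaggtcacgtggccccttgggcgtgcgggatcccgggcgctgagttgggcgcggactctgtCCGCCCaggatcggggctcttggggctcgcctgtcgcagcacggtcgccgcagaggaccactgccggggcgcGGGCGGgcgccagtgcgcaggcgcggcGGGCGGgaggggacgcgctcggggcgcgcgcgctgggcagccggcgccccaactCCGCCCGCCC
Adcy2, chr13:68999492-68999791, minus strand: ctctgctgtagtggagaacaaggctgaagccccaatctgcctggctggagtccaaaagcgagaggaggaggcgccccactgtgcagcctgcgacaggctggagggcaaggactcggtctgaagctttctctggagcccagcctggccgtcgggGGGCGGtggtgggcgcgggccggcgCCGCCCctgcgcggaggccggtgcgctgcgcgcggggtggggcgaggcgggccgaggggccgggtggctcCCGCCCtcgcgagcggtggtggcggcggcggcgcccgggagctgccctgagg
Adcy7, the first start, chr8:88282742-88283041, plus strand: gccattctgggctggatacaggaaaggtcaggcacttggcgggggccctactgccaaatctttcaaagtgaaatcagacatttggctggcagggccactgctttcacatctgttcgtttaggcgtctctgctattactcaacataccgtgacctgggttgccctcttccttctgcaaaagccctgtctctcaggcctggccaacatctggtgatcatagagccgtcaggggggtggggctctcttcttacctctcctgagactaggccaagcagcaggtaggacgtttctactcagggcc
Adcy7, the last start, chr8:88293954-88294253, plus strand: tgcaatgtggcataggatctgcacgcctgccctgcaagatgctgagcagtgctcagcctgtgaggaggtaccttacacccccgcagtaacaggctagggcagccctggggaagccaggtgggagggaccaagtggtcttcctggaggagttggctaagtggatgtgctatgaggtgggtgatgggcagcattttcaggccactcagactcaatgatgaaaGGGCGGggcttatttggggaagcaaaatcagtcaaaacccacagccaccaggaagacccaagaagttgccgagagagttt
A GC box is present in 35.7% of the 32851 promoters of this length. Adcy1 had 5 of them, Adcy2 3, Adcy5 4 and Adcy9 5. Adcy3 had 1 and 0 at its 2 starts, Adcy4 had 0, and Adcy7 had 1 at the last start and none at the other 2. The count did not follow the size of the tissue difference. Adcy9, with 5 boxes, differed by a log2 of 0.74 in the Fmr1 experiment, and Adcy2, with 3, by 4.81. G and C made up 74% of the Adcy1 and 75% of the Adcy2 sequence, against 54.7%, 57% and 55.7% at the 3 starts of Adcy7 and a median of 52.7% over all promoters. These Adcy7 starts lie inside the gene, so inner starts are set here against the outer starts of Adcy1 and Adcy2. The Adcy1 sequence held 37 CG dinucleotides and the Adcy2 sequence 32, and those of Adcy7 4 to 6, while the 2 sequences of Adcy3 held 33 and 7 (68.7% and 56% G and C). The full cAMP response element TGACGTCA, which 1.79% of promoters hold, was in none of the 10 sequences. Its shorter form TGACG, held by 20.8% of promoters on either strand, occurred once in the first Adcy7 promoter and once in that of Adcy9. These are matches of letters in a fixed window and no measure of binding.

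The effect of the Fmr1 knockout was compared next, in each tissue. No cyclase passed an adjusted p under 0.05 with limma, where 0% of probe sets passed in cerebellum and 0.00844% in blood. At an unadjusted p under 0.05, 1 of 9 members was called in cerebellum, Adcy8, against 1.66% of all probe sets (0.894% in the lower direction), and 0 of 9 in blood, against 3.5% (2.73% lower). The methods' t-test gave the same counts of 1 and 0. In cerebellum 7 of the 9 members had a lower mean log2 intensity in Fmr1-KO mice, with a median log2 difference of -0.15 against 0.02 over all probe sets. Without Fmr1-KO mouse 1 that median was -0.03, with Adcy8 still the 1 member at an unadjusted p under 0.05. In blood 7 of 9 had a lower mean log2 intensity, with a median of -0.13 against -0.07. One of the 7 is Adcy1, whose sign rests on mouse 5: without it the log2 difference was 0.62 (95% confidence interval -0.85 to 2.09), and 6 of 9 were lower.

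Adcy8 is described by its values: the 5 Fmr1-KO cerebella had intensities of 2570, 3820, 3520, 3330 and 3090, and the 5 WT cerebella 5260, 4390, 4190, 3960 and 4540. The highest Fmr1-KO value lay below the lowest WT value. The means were 3260 ± 473 (SD, n = 5) and 4470 ± 492 (SD, n = 5), a difference of -0.46 on the log2 scale (SE 0.13, 95% confidence interval -0.75 to -0.17), or 1.37-fold. This gave an unadjusted p of 0.0057 and an adjusted p of 1 in limma, and a p of 0.0079 in the two-sided exact permutation test of the mouse labels, the smallest it can give with 5 against 5 mice. Over all probe sets 0.357% did not overlap between these groups, and 0.25% did so with Fmr1-KO lower. Without Fmr1-KO mouse 1, whose array stands apart and whose Adcy8 was lowest, the log2 difference was -0.38 (unadjusted p = 0.0065), and over all mice left out in turn it lay between -0.52 and -0.38. In blood, where the probe set was dim, the log2 difference was -0.21 (95% confidence interval -0.67 to 0.25), and -0.03 without Fmr1-KO mouse 3. The interaction of genotype with tissue did not pass the test (log2 -0.25, SE 0.24, unadjusted p = 0.32), and over both tissues the difference was -0.33 (SE 0.12, unadjusted p = 0.013, adjusted p = 0.98). The fit over both tissues had no term for the mouse, so both arrays of a mouse counted as separate. Adcy8 was the 1 of 9 members at an unadjusted p under 0.05 in that fit, against 2.73% of all probe sets (1.96% lower), and none passed an adjusted p under 0.05, against 0.00281%. Summed Purkinje cell markers were 85100 to 119000 in Fmr1-KO and 93000 to 123000 in WT cerebellum and granule cell markers 37100 to 44000 and 35600 to 53000, and none of these 12 genes passed an unadjusted p under 0.05.

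Adcy3 also did not overlap, with 293, 427, 431, 416 and 416 in Fmr1-KO against 441, 439, 437, 448 and 479 in WT cerebellum. The exact permutation p was again 0.0079, while limma gave a log2 difference of -0.19 (95% confidence interval -0.47 to 0.09) and an unadjusted p of 0.16. The lowest value, 293, is that of mouse 1, and without it the log2 difference was -0.09 (-0.25 to 0.08). The remaining 7 members overlapped between genotypes in cerebellum, with log2 differences between -0.21 (Adcy6) and 0.25 (Adcy4) and unadjusted p between 0.098 and 0.78. Without mouse 1 they lay between -0.11 (Adcy6) and 0.16 (Adcy4), and Adcy9 went from -0.13 to 0.05 and Adcy7 from 0.05 to -0.01. In Fmr1-KO blood all 9 overlapped, where 0.562% of probe sets did not. Their log2 differences lay between -0.21 (Adcy7 and Adcy8) and 0.10 (Adcy6), apart from -2.17 for Adcy1, which the single value of 0.00271 sets and whose 95% confidence interval ran from -8.16 to 3.82.

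**Figure D3:**
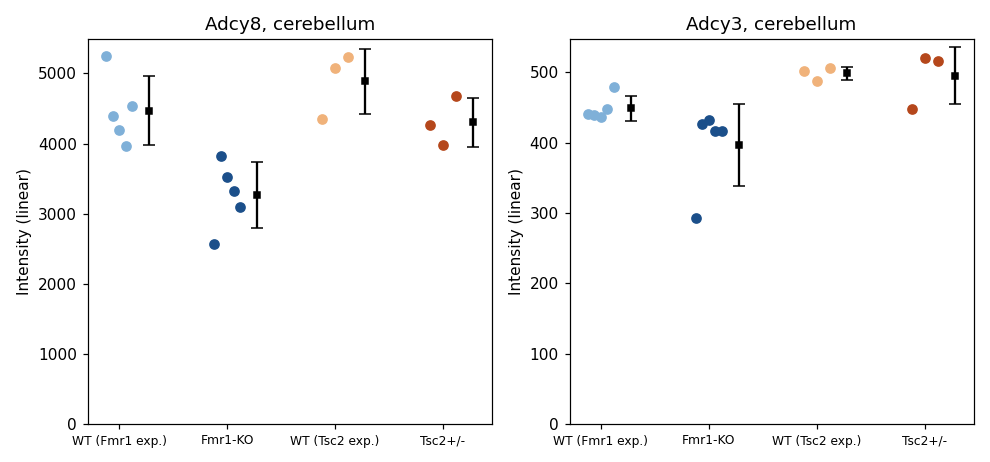
Linear intensity of Adcy8 (left) and Adcy3 (right) in each cerebellum (points, vertical axis from 0), with the mean and SD of each group as a square with bars, for the 4 groups. The 5 Fmr1-KO values of Adcy8, 2570 to 3820, lie below the 5 WT values of 3960 to 5260, whereas the Tsc2+/- values of 3970 to 4680 overlap their WT values.

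Loss of 1 Tsc2 copy was tested with 3 mice a group, where the exact permutation test cannot give a p below 0.1. With limma 0 of 9 cyclases passed an adjusted p under 0.05 in blood (0% of all probe sets) or cerebellum (0.0253%), and 0 of 9 passed an unadjusted p under 0.05 in either (2.14% and 4.94% of all probe sets), as with the methods' t-test. Adcy8 in cerebellum was 4260, 3970 and 4680 in Tsc2+/- and 4350, 5080 and 5230 in Tsc2-WT mice, which overlap. Its log2 difference of -0.18 (95% confidence interval -0.50 to 0.14) had the same sign as in Fmr1-KO mice, and the difference between the 2 genotype effects was 0.28 (SE 0.19, unadjusted p = 0.17). All 9 members overlapped in Tsc2+/- cerebellum, where 10.3% of probe sets did not, with log2 differences from -0.18 (Adcy7 and Adcy8) to 0.08 (Adcy5). Over both tissues 0 of 9 passed an unadjusted p under 0.05, against 2.86% of all probe sets.

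In Tsc2+/- blood 2 members did not overlap, Adcy7 and Adcy4, both higher in Tsc2+/-, against 6.38% of all probe sets (4.36% higher). Adcy7 was 1570, 1340 and 1330 in Tsc2+/- against 1130, 1270 and 932 in Tsc2-WT blood, a log2 difference of 0.36 (95% confidence interval -0.08 to 0.79, exact permutation p = 0.1). Adcy4 was 198, 202 and 239 against 187, 192 and 176, a log2 difference of 0.20 (-0.16 to 0.56, exact permutation p = 0.1). Summed monocyte markers lay between 8860 and 18900 in Tsc2+/- and between 6880 and 10800 in Tsc2-WT blood, and their part in these values was not tested. Adcy5 had the widest positive difference of the others, 0.50 (-0.32 to 1.33), with 74.6, 83.1 and 82.8 against 78.1, 67.3 and 34.2, and the groups overlapped. The other 6 also overlapped, with log2 differences of -0.23 for Adcy8, -0.16 for Adcy6, -0.11 for Adcy9, -0.03 for Adcy3, -0.02 for Adcy1 and 0.21 for Adcy2. Whether the genotype effect differs between the tissues gave 0 of 9 unadjusted p under 0.05 in the Fmr1 experiment (3.28% of all probe sets) and 1, Adcy7, in the Tsc2 experiment (3.49%). Whether it differs between the models gave 1 in blood, also Adcy7 (3.63%), and 0 in cerebellum (2.23%), and no member passed an adjusted p under 0.05 in these tests.

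**Figure D4:**
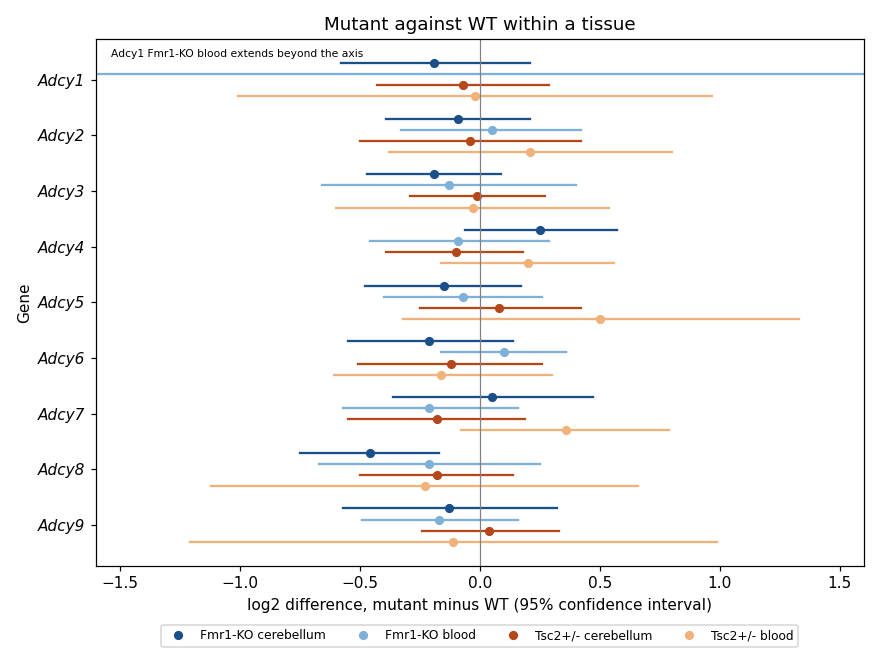
Log2 difference in intensity, mutant minus WT (horizontal axis), for each cyclase in both tissues and models, with 95% confidence intervals as lines. Adcy8 in Fmr1-KO cerebellum, at -0.46, is the only interval that leaves out 0; the value of Adcy1 in Fmr1-KO blood, -2.17, lies outside the axis.

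The WT mice of both experiments were compared because their strains differ. In blood some of the cyclases separated and the others overlapped. Adcy5, Adcy6 and Adcy8 were on the lower side and Adcy7 on the higher side in Tsc2-WT blood, each with no overlap, while Adcy9 was lower on average. None passed an adjusted p under 0.05 with limma, which 0.132% of all probe sets did, and none in the linear model with no moderation. The count depends on the processing: it was 1 with 16 added before the log2 or on linear intensities, 2 without dim probe sets, 3 without Tsc2-WT mouse 1 and 5 with all 32 arrays in 1 fit. At an unadjusted p under 0.05 there were 5 of 9 members with limma (4 with no moderation), 4 lower and 1 higher, where 29% of all probe sets passed (7.08% lower and 21.9% higher). Without overlap were 4 of 9 members, where 24% of all probe sets were so. The median of all probe sets was 0.22 higher (log2) in Tsc2-WT blood, so the lower members stand below that shift and Adcy7 above it.

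For Adcy5 the Tsc2-WT blood values of 78.1, 67.3 and 34.2 compared with 124, 197, 148, 141 and 146 in Fmr1-WT blood, a log2 difference of -1.40 (SE 0.29, unadjusted p = 0.0016, adjusted p = 0.068). Adcy8, which is dim in blood and at about the level of Xist, differed by -1.03 (SE 0.27, unadjusted p = 0.0056, adjusted p = 0.073), with 49.7, 34 and 20.7 against 62.7, 64.5, 69.7, 61.6 and 75.9. The difference in Adcy6 was -0.50 (SE 0.16, unadjusted p = 0.014, adjusted p = 0.093), from 958, 773 and 989 against 1210, 1150, 1440, 1500 and 1140. These 3 genes were lower in each Tsc2-WT mouse than in any Fmr1-WT mouse, and the exact permutation p was 0.018 for each, the smallest that 5 against 3 mice can give. Adcy7 lay the other way, with a log2 difference of 0.58 (SE 0.17, unadjusted p = 0.011, adjusted p = 0.086) from 1130, 1270 and 932 against 899, 747, 599, 694 and 776, also without overlap. It was 0.43 (unadjusted p = 0.057) once arrays were centred on their median. In Adcy9 the groups overlapped (395, 199 and 153 against 457, 357, 552, 407 and 326), with a log2 difference of -0.85 (SE 0.33, unadjusted p = 0.034, adjusted p = 0.14). It ran from -1.24 to -0.56 with each mouse left out and lost the unadjusted call in 5 of 8 such fits, with -0.56 (unadjusted p = 0.13) without Tsc2-WT mouse 3. The other 4 members overlapped, with log2 differences of 0.56 for Adcy1, 0.27 for Adcy2, 0.22 for Adcy3 and -0.14 for Adcy4.

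The mutant mice are other animals of the same strains, and were compared in the same way. In blood of Tsc2+/- against Fmr1-KO mice, a comparison added after the WT values had been seen, 5 of 9 members passed an adjusted p under 0.05, where 29.3% of all probe sets passed. They were Adcy5 (log2 -0.82, SE 0.14, adjusted p = 0.0085), Adcy6 (-0.76, SE 0.14, adjusted p = 0.0096), Adcy8 (-1.05, SE 0.28, adjusted p = 0.03), Adcy9 (-0.79, SE 0.23, adjusted p = 0.039) and Adcy7 (1.15, SE 0.18, adjusted p = 0.008). Each of the 5 was without overlap. That comparison also holds the difference between the mutations. With all 16 mice in 1 fit and genotype as a term, also added, the same 5 genes passed, where 41.2% of all probe sets did, from -1.11 (SE 0.18, adjusted p = 0.00023) for Adcy5 to 0.87 (SE 0.14, adjusted p = 0.00028) for Adcy7.

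Several lists of blood cell markers differed between the experiments. Summed platelet markers (5 genes measured) were 87200 to 96900 in Fmr1-WT and 69400 to 86700 in Fmr1-KO blood, but 73600, 41500 and 2240 in Tsc2-WT mice 1 to 3 and 44400, 3220 and 56800 in Tsc2+/- mice 1 to 3. The 2 mice with the lowest platelet sums, Tsc2-WT mouse 3 and Tsc2+/- mouse 2, also had the lowest Adcy9 of their groups (153 and 144) and the lowest Adcy8 (20.7 and 21.8). Other members did not follow in both mice. Adcy5 was lowest in Tsc2-WT mouse 3 (34.2) but highest in Tsc2+/- mouse 2 (83.1). Adcy6 was highest in Tsc2-WT mouse 3 (989) and lowest in Tsc2+/- mouse 2 (689). The same 2 mice were also lowest of their groups in summed neutrophil markers (7140 and 3760) and microglia markers (840 and 905). Without those 2 mice, in the fit over all other mice with genotype as a term, the log2 differences were -0.95 for Adcy5, -0.61 for Adcy6, -0.78 for Adcy8, -0.54 for Adcy9 and 0.94 for Adcy7, with adjusted p from 0.00062 to 0.038, where 30.2% of all probe sets passed. These 2 mice were chosen after their values had been seen, and the other Tsc2 mice still had platelet sums of 41500 to 73600. T cell markers summed to 13100 to 23300 in Tsc2-WT against 6810 to 7940 in Fmr1-WT blood, and 5 of 5 were higher at an unadjusted p under 0.05. Natural killer cell markers summed to 19500 to 34100 against 10800 to 16000, with 6 of 6 higher. Erythroid markers (3 genes measured) summed to 23700 to 31100 against 35300 to 44900, with 2 of 3 lower. Of the other lists, 3 of 5 B cell and 1 of 5 monocyte markers were higher and 2 of 9 neutrophil markers lower. None of the platelet markers (0 of 5) was called between the WT mice, where their sums varied widely in the Tsc2 experiment. Over all probe sets 21.9% were higher and 7.08% lower at that threshold. The part of these cell types in the cyclase values was not tested, and strain, cell composition and experiment cannot be told apart here.

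**Figure D5:**
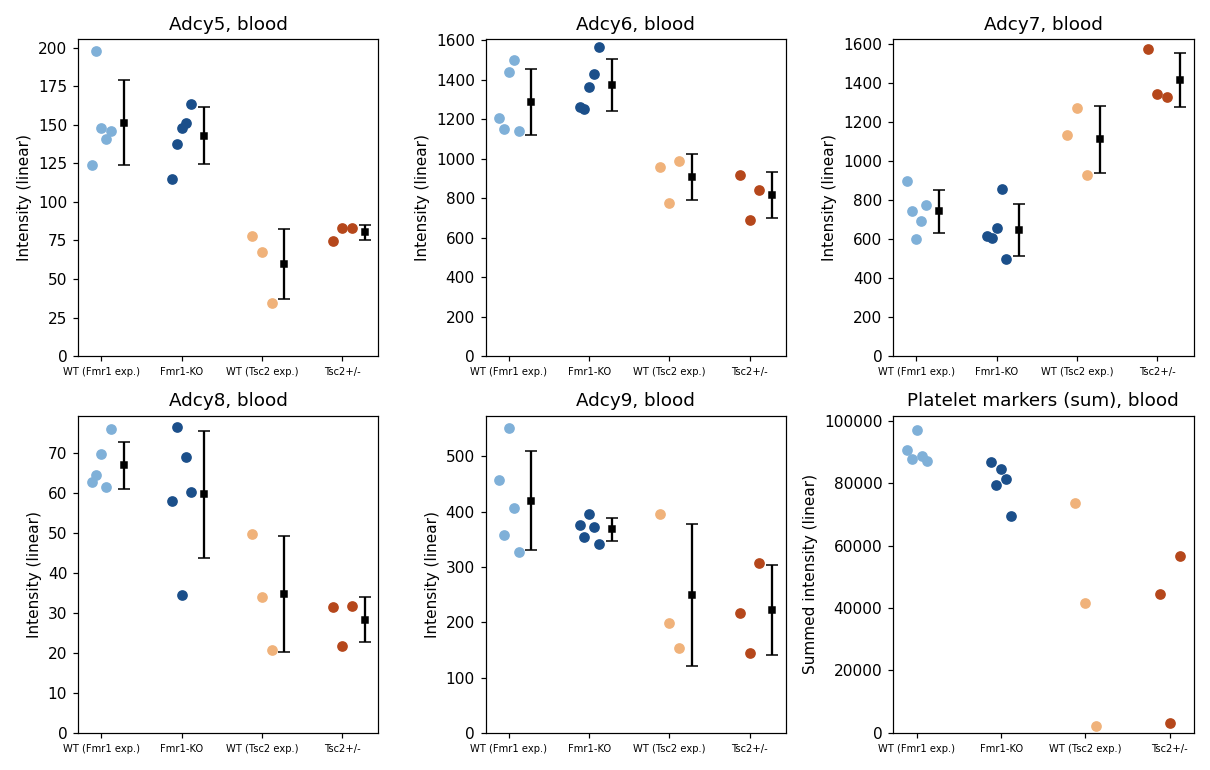
Linear intensity of 5 cyclases in each blood array (points, vertical axis from 0), with the group mean and SD as a square with bars, and the summed intensity of platelet markers in the same arrays (last panel). Adcy5, Adcy6 and Adcy8 have lower means and Adcy7 higher means in both groups of the Tsc2 experiment, and 2 mice of that experiment have platelet sums of 2240 and 3220.

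The cerebella of the WT mice were compared in the same way. At an unadjusted p under 0.05 stood 1 of 9 members, against 8.19% of all probe sets, and 0 at an adjusted p under 0.05, against 0.00562%. This was Adcy2, with 8200, 10100 and 12100 in Tsc2-WT and 8810, 7510, 7220, 7410 and 8440 in Fmr1-WT mice, a log2 difference of 0.35 (SE 0.15, unadjusted p = 0.044, adjusted p = 0.56) with overlapping groups. It was 0.21 without Tsc2-WT mouse 3. Adcy3 did not overlap (502, 488 and 506 against 441, 439, 437, 448 and 479, exact permutation p = 0.018), where 4.98% of probe sets were so, with a log2 difference of 0.15 and an unadjusted p of 0.13. In the same mice and tissue Adcy5 was 0.22 (95% confidence interval -0.05 to 0.50), Adcy6 0.16 (-0.22 to 0.53), Adcy7 0.18 (-0.36 to 0.71) and Adcy8 0.13 (-0.16 to 0.42). Adcy1 was 0.23 (-0.14 to 0.60), Adcy9 0.17 (-0.14 to 0.48) and Adcy4 -0.02 (-0.27 to 0.24), all with overlapping groups. Choroid plexus markers (7 genes) summed to 745 to 15100 in Tsc2-WT and 14700 to 19100 in Fmr1-WT cerebellum, with 6 of 7 lower at an unadjusted p under 0.05, and their part here was not tested. Whether strain effects differ between the tissues was not tested.

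Across the 16 cerebellum arrays, with the group means taken out, some members varied together. Adcy4 and Adcy8 had a Pearson r of -0.93 (-0.89 without Fmr1-KO mouse 1), Adcy6 and Adcy7 -0.84 (-0.87) and Adcy2 and Adcy8 0.81 (0.76). Adcy3 and Adcy5 had 0.89, which was 0.61 without that mouse, and Adcy1 and Adcy3 went from 0.66 to -0.00, so these 2 rest largely on that array. The genes most like Adcy8 in this sense, out of 17319, were Tram1l1 (r 0.98, and 0.97 without the mouse) and Prim2 (0.97 and 0.95). For Adcy2 they were Nek7 and Ppp1r3f (both 0.95), for Adcy9 Ganab (0.99) and B4galt6 (0.98), for Adcy1 Arap1 and Cplx2 (both 0.96), and for Adcy4 Lce1l and Spx (both 0.96). Adcy5 was closest to Impdh1 and Wdr6 (both 0.95), Adcy6 to Sun1 (0.95) and Dhrs3 (0.93), and Adcy7 to Ptprcap (0.91) and Fitm1 (0.90). Those of Adcy3, Acsf3 (0.96) and Psmb7 (0.95), dropped to 0.70 and 0.76 without Fmr1-KO mouse 1. The points share the normalization and the array's overall brightness, so these values describe these arrays.

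The rest of the cAMP pathway was read from 9 lists of 132 genes, of which 119 were measured. Between the tissues 74 rose in cerebellum and 29 in blood for the Fmr1 mice, and 66 and 29 for the Tsc2 mice. Over all probe sets 51.8% were higher and 20% lower in cerebellum in the Fmr1 and 31% and 26.4% in the Tsc2 experiment, shares against which each list below is to be read. Of the receptors that inhibit cyclases through Gi, 17 of 22 were higher and 1 lower in cerebellum in the Fmr1 and 15 higher and 1 lower in the Tsc2 experiment. The cannabinoid receptor Cnr1 of neurons rose by 8.04 and 8.50 (log2, Fmr1 and Tsc2 experiment) and the glutamate receptor Grm4 by 7.55 and 7.35, while Cnr2, the cannabinoid receptor of immune cells, was lower by -3.94 and -4.53. Of 19 Gs-coupled receptors, 11 were higher and 5 lower in the Fmr1 mice, and 9 and 5 in the Tsc2 mice. The receptor for the peptide PACAP, Adcyap1r1, was higher in cerebellum by 5.89 and 5.48, as was the corticotropin-releasing hormone receptor Crhr1 by 5.07 and 4.83. The prostaglandin receptors Ptger4 (-3.26 and -3.92) and Ptgir (-1.73 and -1.37) were higher in blood.

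Downstream, all 8 measured subunits and inhibitors of protein kinase A differed between the tissues in each experiment, 6 higher and 2 lower in cerebellum. The regulatory subunit Prkar1b was 6.05 and 6.51 higher on the log2 scale and the inhibitor Pkia 11.55 (SE 1.76) and 7.47. Pkia, Pde8b, Hcn2 and Cnr1 had mean blood intensities of only 10.9, 13.7, 13.8 and 14.5 in the Fmr1 experiment. Those of Adcyap1r1, Akap6, Akap1 and Grm4 were 25.4, 31, 31.5 and 34.7. Gng3 had 32.9 ± 44.3 and Gnao1 53.3 ± 68.4 (SD, n = 10). Adcy10, Crhr1, Rapgef3 and Prkar1b, at 44.7, 47.5, 49.3 and 59.9, were also within the range of Xist in blood (17.3 to 62.6). In cerebellum Cnr2 and Ptger4 had means of 32.2 and 37.6. The log2 differences of all these genes rest on a near-background signal and their sizes are not exact. The subunit Prkar2b, by contrast, was higher in blood (-4.43 and -2.57), as was the inhibitor Pkig (-0.87 and -0.95). Among 16 phosphodiesterases 9 were higher and 6 lower in the Fmr1 and 6 and 5 in the Tsc2 experiment, with Pde8b (4.77 and 4.18) and Pde1c (3.00 and 4.10) higher in cerebellum and Pde7a (-0.61 and -1.35) and Pde2a (-0.52 and -1.11) in blood. The 23 G protein subunits and their chaperones had 13 higher in cerebellum in each experiment, among them Gnao1 of the inhibitory Go protein (7.74 and 7.78) and Gng3 (11.31, SE 1.87, and 5.82), and 6 and 4 lower, among them Gng5 (-2.46 and -1.74) and Gnai2 (-0.91 and -1.02). Of 10 kinase anchors measured, 7 were higher and 2 lower in cerebellum in the Fmr1 and 6 and 3 in the Tsc2 experiment. Akap6 (5.24 and 5.45) and Akap1 (5.07, SE 1.24, and 2.20) were higher in cerebellum and Akap13 (-2.86 and -3.29) and Akap7 (-1.68 and -0.82) in blood. Among the other sensors and CREB factors the cAMP-gated channel Hcn2 (9.28 and 7.51) and the exchange factor Rapgef3 (2.36 and 1.86) were higher in cerebellum, and Crtc2 (-0.82 and -1.73) and Atf1 (-1.27 and -1.09) lower, of 13 measured (6 higher and 5 lower, then 6 and 6). Of 7 calmodulins and regulators 4 were higher in each experiment, Calm2 by 3.14 and 3.16 and Cap2 by 1.81 and 2.71, and 2 and 3 lower, with Cap1 at -1.77 and -1.56 and Rgs2 at -1.93 and -1.30. The soluble cyclase Adcy10, which bicarbonate and not G proteins controls, was 0.94 and 0.45 higher in cerebellum.

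No gene of these lists passed an adjusted p under 0.05 between genotypes within a tissue or between the WT strains. In Fmr1-KO cerebellum 2 of 119 had an unadjusted p under 0.05, about the same share as the 1.66% of all probe sets (0.894% lower). Both were lower and both are phosphodiesterases. Pde3a was 175, 163, 181, 164 and 183 in Fmr1-KO and 314, 225, 217, 203 and 207 in WT cerebellum (log2 -0.41, unadjusted p = 0.011, adjusted p = 1), and -0.42 without mouse 1. Pde4b was 831, 1120, 1150, 1010 and 1050 against 1320, 1200, 1170, 1180 and 1260 (log2 -0.25, unadjusted p = 0.047, adjusted p = 1), and without mouse 1, which has the lowest value, -0.18 (unadjusted p = 0.055). Neither gene overlapped between the genotypes, where 0.357% of all probe sets did not (0.25% with Fmr1-KO lower). The third smallest p belonged to Akap11 (log2 -0.22, unadjusted p = 0.097). In Fmr1-KO blood 4 of 119 stood at an unadjusted p under 0.05, all lower, against 3.5% of all probe sets (2.73% lower), which is about the same share. The smallest p belonged to Pde2a, which hydrolyses cAMP and is activated by cGMP (log2 -0.35, unadjusted p = 0.01, adjusted p = 0.96), then Grm3 (-1.28) and the G protein chaperone Ric8a (-0.27). Grm3 had mean blood intensities of only 9.17 in Fmr1-KO and 20.6 in WT mice, so its difference rests on a near-background signal.

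In Tsc2+/- mice 1 of 119 genes stood at an unadjusted p under 0.05 in each tissue, against 2.14% of all probe sets in blood and 4.94% in cerebellum. In cerebellum this was Atf1, a CREB family factor, with 539, 489 and 547 against 652, 763 and 630 (log2 -0.37, unadjusted p = 0.026, adjusted p = 0.93), followed by Gng7 (-0.27) and Pde1c (-0.33). In blood it was Gnao1 (log2 -1.10, unadjusted p = 0.039, adjusted p = 1), then Gng2 (0.30) and Pde4d (-0.55). Gnao1 was near background there, with means of 20.4 in Tsc2+/- and 41.7 in Tsc2-WT blood. Between the WT mice, 19 genes of the lists were higher and 10 lower in Tsc2-WT blood at an unadjusted p under 0.05, near the shares of all probe sets (21.9% higher and 7.08% lower). The 3 smallest p belonged to the CREB coactivator Crtc3 (log2 0.79, adjusted p = 0.068), the prostaglandin E receptor Ptger4 (0.97, adjusted p = 0.068) and Creb1 (0.88, adjusted p = 0.068). In WT cerebellum 1 of 119 was higher and 2 lower, a smaller share than the 8.19% of all probe sets. They were Gpr3 (0.32, unadjusted p = 0.023), Drd4 (-0.31) and Htr4 (-0.29).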

How the data were processed

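TRIzol total RNA of blood and cerebellum from 16 mice was hybridised as biotin-labelled cRNA to 32 arrays (Affymetrix Mouse Gene 1.0 ST). The deposited table holds linear intensities: the authors quantile-normalized probe signals across the whole set and summarised them with PLIER in Affymetrix Power Tools, whose versions and genome build are not given in the sources used here. Since normalization spanned both tissues, a shift of most genes between tissues or strains can move the rest.

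The log2 of each intensity was taken without an offset, so values near 0 become large negative ones. The platform annotation gives 21789 probe sets 1 gene symbol, 1621 several and 12146 none, and all 9 members were matched. limma 3.58.1 in R 4.3.3 (lmFit, eBayes) fitted all 35556 probe sets, with Benjamini-Hochberg adjustment over all of them at 0.05. Tissue and genotype were terms over both tissues, with no term for the mouse, and genotype or experiment alone within a tissue. Within a tissue, a single gene was also put to the two-sided exact permutation test of the mouse labels, on log2 values. The fits were also run on simulated data, made from log2 values with 16 added. That simulation therefore does not cover the noise of values near 0 in the fits reported here. The mice are separate animals, and their number limits the precision of the arrays.

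The members, the pathway lists, the marker lists and the rule for naming genes were chosen with earlier results of these data known. The rule covers all 9 members in every comparison, by a value of their own or within a range or count. Between tissues it names, per list, the 2 largest rises and 2 largest falls shared by both experiments. Between genotypes or WT mice it names every list gene at an adjusted p under 0.05, or else the 3 with the smallest p. It also names 2 genes per member with the most similar pattern in cerebellum.

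Both arrays of a mouse carry its number, so tissues are paired by mouse, and a fit with mouse as a replicate block was run as an alternative; deviations of the paired arrays from their group means correlated by -0.07 to 0.08. Numbers were not taken to pair mutant with WT mice, whose correlations ran from -0.09 to 0.23. Number 1 had the highest of these, 0.23 in cerebellum of the Fmr1 experiment and 0.16 in cerebellum and 0.14 in blood of the Tsc2 experiment. The other alternatives were 16 added before the log2, new quantile normalization within each tissue, centring on the array median, only probe sets with a mean intensity of at least 64, no moderation, linear intensities, the methods' t-test, all arrays in 1 fit, and leaving out each mouse.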

Additional observations from a re-analysis of the deposited data

Results flagged for a closer look

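Among 36 sets of values, each of 1 gene in 1 group of 5 mice, 7 single values lay far from the others of their set. Chance flags about 1 in 20 independent sets. The sets of a group come from the same arrays and are not independent, so the count of 7 cannot be judged against that rate. In Fmr1-KO cerebellum the outlying values were the lowest Adcy1 (3600) and Adcy3 (293) and the highest Adcy7 (199). All of them lay on the array of mouse 1, which stands apart as a whole. In WT cerebellum of the Fmr1 experiment they were the lowest Adcy1 (4560) and Adcy9 (539), both of mouse 1, and the highest Adcy3 (479, mouse 5). In Fmr1-KO blood it was the highest Adcy1 (135, mouse 3), on the array whose neuron markers summed to 958 against 38.9 to 89 in the others, and the part of that RNA in the value was not tested.

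Of 36 tests that set the genotype effects of both tissues or both models against each other, 2 gave an unadjusted p under 0.05, both for Adcy7 and neither at an adjusted p under 0.05. The Tsc2+/- effect on Adcy7 was -0.54 on the log2 scale (cerebellum minus blood, unadjusted p = 0.042, adjusted p = 1), with mutant minus WT at 0.36 in blood and -0.18 in cerebellum. The effect in blood was 0.56 higher in Tsc2+/- than in Fmr1-KO mice (unadjusted p = 0.039, adjusted p = 1), at 0.36 and -0.21. With mouse as a replicate block the first had an unadjusted p of 0.092, and arrays centred on their median gave 0.12 and 0.089.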

How the results depend on the processing

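Outside the tissue comparisons the main count of cyclases at an adjusted p under 0.05 was 0, and at most 0.132% of all probe sets passed. Most of those counts therefore had little room to change. In 252 of 260 alternative counts of cyclases at an adjusted p under 0.05 the count stayed within 1.5 times, and the 8 others all concern blood of the WT mice. There the count of 0 became 1 with 16 added before the log2 or on linear intensities, 2 without dim probe sets and 5 with all 32 arrays in 1 fit. It was also 5 in the alternatives added after the data were seen, which used the mutant mice, all mice, or all mice but the 2 lowest in platelet markers, and 0 to 3 when each mouse was left out (3 without Tsc2-WT mouse 1). No single gene changed direction in 468 alternatives over 26 differences, and 42 of them lost the call, among them Adcy9 between the tissues of the Fmr1 experiment once arrays were centred. With the replicate number as a block, 0 cyclases passed between genotypes or WT mice, and of the 5 unadjusted calls in WT blood that of Adcy5 alone was left. Mouse as a replicate block left 8 of 9 cyclases called between the tissues in each experiment, and 0 of 9 in the tests of genotype by tissue. Adcy2 between WT cerebella had an unadjusted p of up to 0.19 when a mouse was left out. The dim blood values of Adcy1 and Adcy8 and the groups of 3 mice limit what can be told.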
